A study of Mus musculus with 12 samples.

Results

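The genes followed here encode 9 proteoglycans of the extracellular matrix, chosen by protein family, with earlier results of these data known, out of 25230 genes listed in each library. Of these, 7 were small leucine-rich proteoglycans: biglycan (Bgn), decorin (Dcn), lumican (Lum), fibromodulin (Fmod), asporin (Aspn), osteoglycin (Ogn) and the proline- and arginine-rich end leucine-rich repeat protein (Prelp). The other two, versican (Vcan) and aggrecan (Acan), are large proteoglycans that bind hyaluronan. In total, 12 RNA-seq libraries from cultured mouse mesangial cells (MMC) were compared in 4 groups of 3. WT-SD and WT-TGF were wild-type MMC, either serum-depleted or exposed for 24 hours to TGF-β (10 ng/ml). KO-SD and KO-TGF were MMC with the same 2 treatments from mice of the lncMGC-KO5 line. In that line Cas9 and a pair of guide RNAs had removed a short stretch just downstream of the start of lncMGC, the long non-coding RNA that hosts the miR-379 cluster. The deletion is carried in the germ line, so every cell type of these mice has it, and KO5 is 1 line. The study calls the samples behind its expression heatmap independent, but neither it nor the labels say whether the 3 libraries of a group came from separate cultures or animals, so the p-values below measure the spread between these libraries only.

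Small leucine-rich proteoglycans are short secreted proteins with a curved repeat domain that binds collagen fibrils, and several of them also bind TGF-β. Biglycan and decorin carry chondroitin or dermatan sulfate chains, while fibromodulin, lumican, osteoglycin and Prelp carry keratan sulfate or few chains. Versican and aggrecan hold many chondroitin sulfate chains and form swollen aggregates with hyaluronan. Mesangial cells lay down the matrix between glomerular capillaries, and TGF-β is a main driver of matrix build-up there in diabetic kidney disease.

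Depth was even, at 19898050 to 22827706 counts on genes per library, and 3 counts corresponded to 0.13 to 0.16 CPM (counts scaled to library size, with TMM factors of 0.8997 to 1.094). lncMGC itself was not among the genes counted. Mirg, which the study places over the 3′ part of lncMGC and thus outside the deletion, had 47, 50 and 59 counts in WT-SD and 72, 89 and 74 in KO-SD. In a fit of all genes with at least 1 count, Mirg was higher in KO-SD than in WT-SD (log2 fold change 0.68, SE 0.157; adjusted p = 6.51e-05 by edgeR's quasi-likelihood test). It did not pass the same test after TGF-β (0.26, SE 0.144; adjusted p = 0.145). The genotype labels thus could not be checked by the deleted gene, and Mirg gave no fall in the libraries labelled KO. The share of reads on no gene differed between all groups without overlap, at 15.18 to 15.38% in WT-SD, 12.23 to 12.52% in WT-TGF, 12.72 to 13.43% in KO-SD and 10.26 to 10.89% in KO-TGF. Mesangial and smooth muscle genes were expressed, with a summed level of 2912 to 3052 CPM in WT-SD, 6008 to 6151 in WT-TGF, 5178 to 5368 in KO-SD and 11101 to 11175 in KO-TGF over 10 genes, but Thy1 was at or below 3 counts in every library, and Itga8 reached at most 75 counts. Acta2 and Tagln made up most of that sum, and the list did not move as one: of its 8 tested genes the knockout had 6 higher and 2 lower in SD, and 5 higher and 3 lower after TGF-β. Des was at 7.68 ± 0.949, 5.61 ± 0.482, 0.529 ± 0.0234 and 0.247 ± 0.107 CPM (SD, n = 3) in the same order of groups, and Serpine2 at 278 ± 7.21, 193 ± 8.03, 83.9 ± 6.48 and 44.3 ± 1.45. Nphs1 and Ptpro of podocytes, Cdh5, Emcn and Tie1 of endothelium, and Slc34a1, Umod and Aqp2 of tubules were all at or below 3 counts. Other marker lists moved with the genotype or with TGF-β. The summed level of 6 macrophage genes was 33.4 to 36.9 CPM in WT-SD, 17.7 to 20.9 in WT-TGF, 8.13 to 9.77 in KO-SD and 2.30 to 2.62 in KO-TGF, with Adgre1 at 0 in all KO libraries. That of 9 fibroblast genes was 23.2 to 26.6, 14.6 to 15.2, 26.4 to 29.7 and 9.47 to 11.7 CPM in the same order, with Meox1 at 0. The fibroblast genes moved in both directions between WT-SD and KO-SD. Fbln1 went from 4.09 to 11.8 CPM, Pi16 from 0.195 to 1.26 and Dpt from 0.0297 to 0.543. Mfap5 went from 4.92 to 1.75 CPM and Pdgfra from 3.55 to 1.97. The podocyte genes Podxl, Synpo and Wt1 were lower in KO than in WT under both treatments, with Wt1 at 99.1, 68.2, 25.3 and 11.7 CPM. The summed level of 6 tubular genes was 71.1 to 77.0, 21.0 to 24.2, 16.3 to 17.5 and 9.13 to 9.95 CPM. Lrp2, at 42.7, 11.7, 10.8 and 3.28 CPM, and Cdh16, at 27.5, 6.13, 2.71 and 0.53, carried these falls. Cubn of the same list was instead higher after TGF-β, with group means of 3.01, 5.25, 3.23 and 5.63 CPM. In the fit of all genes with a count, the genotype difference of Cubn did not pass the test under either treatment (log2 fold change 0.14 in SD and 0.11 after TGF-β). The summed level of 6 endothelial genes stayed between 0.0535 and 1.01 CPM in all libraries. The part of these lists, and of the share of reads on no gene, in the results below was not tested.

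Of the 9 members, 6 passed the limit of more than 1 RPKM (reads per kilobase of transcript, scaled to library size) in at least one library and were tested among 11477 genes: Bgn, Vcan, Fmod, Dcn, Ogn and Prelp. Lum, Aspn and Acan stayed under it. Lum, a partner of collagen fibrils in cornea and skin, had at most 3 counts in any library. Acan, the main proteoglycan of cartilage, had at most 2. Aspn, which binds TGF-β, had 2, 1 and 2 counts in WT-SD, 1, 1 and 1 in WT-TGF, 8, 4 and 5 in KO-SD, and 0, 0 and 3 in KO-TGF. Counts of 0 in a library allow up to 3 counts. The highest Aspn libraries were those of KO-SD.

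Levels are compared between genes per length of the longest RefSeq-matched transcript, as RPKM. Biglycan led in every group, with 439 ± 15.3 RPKM (SD, n = 3) in WT-SD, 793 ± 20.9 in WT-TGF, 623 ± 10.2 in KO-SD and 1139 ± 30.9 in KO-TGF. Versican was next throughout, at 23.4 ± 0.823, 83.5 ± 1.70, 98.6 ± 4.02 and 207 ± 1.60 RPKM. Biglycan thus made up 86.8%, 87.4%, 71.8% and 82.5% of the summed RPKM of the 9 genes in these groups, and versican 4.63%, 9.20%, 11.4% and 15.0%. Below the leading pair the order changed with the group. Osteoglycin was the third gene in WT-SD at 19.3 ± 0.883 RPKM, above fibromodulin at 16.5 ± 0.835. In WT-TGF fibromodulin was the third at 23.0 ± 0.361 RPKM, with osteoglycin at 5.23 ± 0.577. In KO-SD osteoglycin was at 80.2 ± 4.79 RPKM, decorin at 33.8 ± 2.1 and fibromodulin at 22.2 ± 0.417. In KO-TGF the same 3 genes were at 12.9 ± 0.451, 10.7 ± 0.395 and 9.61 ± 0.0716 RPKM. Prelp was the sixth in all 4 groups, from 0.514 ± 0.0623 in WT-TGF to 10.1 ± 0.512 RPKM in KO-SD. The place of decorin relative to fibromodulin or Prelp depended on the length used, since with the union of all exons decorin fell below fibromodulin in both KO groups and below Prelp in WT-SD. The other neighbours in the order of the 6 tested genes lay further apart than the SD of either gene. The RPKM ratio of biglycan to decorin was 78.4 ± 2.89 in WT-SD, 387 ± 33.7 in WT-TGF, 18.4 ± 1.12 in KO-SD and 106 ± 1.36 in KO-TGF. The ratio of versican to biglycan was 0.0533 ± 0.0018, 0.105 ± 0.00442, 0.158 ± 0.00582 and 0.182 ± 0.0062. These shares and ratios depend on the length used. With the union of all exons, biglycan made up 74.8%, 75.9%, 54.5% and 68.9% of the sum, the ratio of versican to biglycan was 0.116, 0.228, 0.343 and 0.394, and the order of the groups in each was kept.

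**Figure D1:**
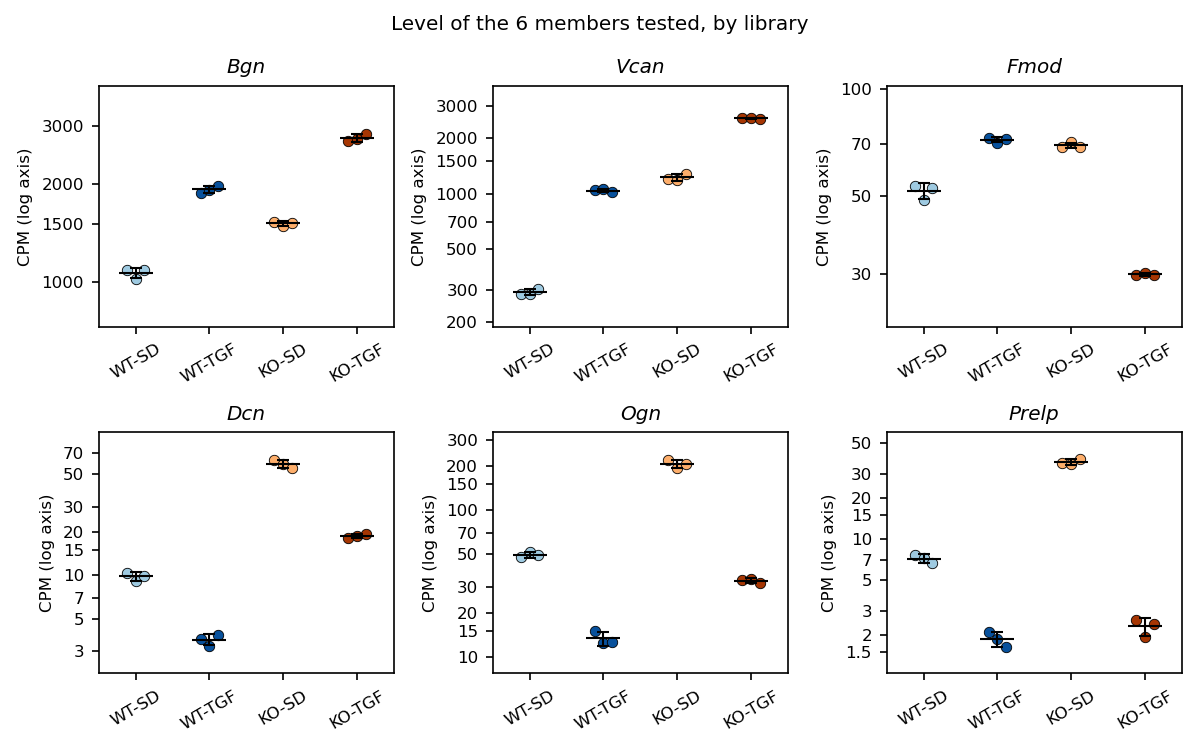
Level of each of the 6 tested genes in each library, in CPM on a log axis, by group. Points are libraries, and bars are the mean and SD of 3 libraries. Bgn and Vcan are highest in KO-TGF, Dcn, Ogn and Prelp are highest in KO-SD, and Fmod is lowest in KO-TGF.

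The first comparison asked how TGF-β moved these genes in wild-type cells. Versican, biglycan and fibromodulin rose with TGF-β, and osteoglycin, Prelp and decorin fell. Versican rose 3.58-fold and biglycan 1.81-fold, whereas osteoglycin fell 3.69-fold, Prelp 3.85-fold and decorin 2.74-fold. Thus 3 of the 6 tested genes were higher and 3 lower at a false discovery rate of 5%, where 35.9% of all tested genes were called higher and 36.5% lower. The median log2 fold change was -0.48 over the 6 genes and -0.006 over all genes tested.

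Versican was at 284, 284 and 302 CPM in WT-SD and rose to 1041, 1057 and 1015 CPM with TGF-β (log2 fold change 1.84, SE 0.0276; adjusted p = 8.58e-31 by edgeR's quasi-likelihood test, as for all adjusted p-values below). By CPM it moved from rank 473 to rank 90 of 11477 genes. Biglycan was at 1084, 1019.9 and 1084 CPM in WT-SD and 1869, 1917 and 1970.4 in WT-TGF (log2 fold change 0.85, SE 0.0252; adjusted p = 2.52e-23). Biglycan, a gene of the X chromosome whose free protein can signal through Toll-like receptors, was already at rank 68 in serum-depleted cells. Fibromodulin, which guides collagen fibril thickness, was at 53.3, 48.5 and 52.6 CPM before and 72.6, 70.5 and 72.2 after TGF-β (log2 fold change 0.48, SE 0.0386; adjusted p = 2.11e-12). For none of these genes did the libraries of the 2 groups overlap. How many of all tested genes were apart in this way was not counted, here or in the comparisons below.

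Among the genes that fell, osteoglycin, a small leucine-rich protein first described in bone, was at 47.5, 52.0 and 49.0 CPM in WT-SD and 15.1, 12.5 and 12.6 in WT-TGF (log2 fold change -1.88, SE 0.0646; adjusted p = 1.14e-21). Prelp, which anchors basement membrane to collagen, was at 7.70, 7.21 and 6.66 CPM and then at 2.08, 1.87 and 1.63 (log2 fold change -1.94, SE 0.133; adjusted p = 4.32e-14). Decorin, which binds and holds TGF-β, was at 10.4, 9.12 and 9.98 CPM and then at 3.64, 3.25 and 3.90 (log2 fold change -1.45, SE 0.107; adjusted p = 2.44e-13). Every WT-TGF library was below every WT-SD library for these genes. As in any bulk sample, fewer cells that express a gene and less RNA per cell cannot be told apart.

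In lncMGC-KO5 cells TGF-β moved the same genes in the same directions, with the exception of fibromodulin, which fell. Of the 6 tested genes, 2 were higher and 4 lower, where 35.0% of all tested genes were called higher and 39.0% lower. Versican was at 1207, 1186 and 1281 CPM in KO-SD and 2578, 2579 and 2544 in KO-TGF (log2 fold change 1.07, SE 0.0261; adjusted p = 1.67e-25). Biglycan was at 1528, 1480.4 and 1514 CPM and then at 2695, 2733 and 2839 (log2 fold change 0.87, SE 0.0251; adjusted p = 1.09e-23). Every KO-TGF library was above every KO-SD library for this pair.

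Fibromodulin was at 68.7, 70.7 and 68.3 CPM in KO-SD and 29.9, 30.2 and 29.8 in KO-TGF (log2 fold change -1.21, SE 0.0434; adjusted p = 3.32e-21). The lowest KO-SD library thus stood far above the highest KO-TGF library, the reverse of the order in wild-type cells. Prelp was at 35.7, 35.1 and 38.5 CPM in KO-SD and 2.57, 1.92 and 2.41 in KO-TGF (log2 fold change -3.98, SE 0.096; adjusted p = 1.16e-25). This 15.8-fold fall was the widest change of the 6 tested genes in the comparisons made here. Osteoglycin was at 218, 194 and 205 CPM and then at 33.6, 33.8 and 31.7 (log2 fold change -2.64, SE 0.0495; adjusted p = 1.85e-28). Decorin was at 63.1, 59.2 and 55.7 CPM and then at 18.1, 18.8 and 19.5 (log2 fold change -1.66, SE 0.0571; adjusted p = 1.1e-21). By CPM, osteoglycin went from rank 850 to rank 5511 of the 11477 genes.

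The second comparison asked how the knockout cells differed from wild-type cells under the same treatment. In serum-depleted cells all 6 tested genes were higher in the knockout, where 30.6% of all tested genes were called higher and 25.3% lower. Decorin was 6.03-fold higher (log2 fold change 2.59, SE 0.0621; adjusted p = 3.77e-25), Prelp 5.06-fold (2.34, SE 0.0727; adjusted p = 2.91e-22), versican 4.22-fold (2.08, SE 0.0277; adjusted p = 1.98e-31) and osteoglycin 4.16-fold (2.06, SE 0.0456; adjusted p = 5.46e-26). Biglycan and fibromodulin were 1.42-fold and 1.35-fold higher, with adjusted p-values of 4.4e-17 and 6.32e-11. Over the 6 genes the median was 2.07 on the log2 scale, against 0.018 over all genes tested. For each of the 6 genes the lowest KO-SD library was above the highest WT-SD library. The share of all tested genes for which this held was not counted.

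Serum-depleted knockout cells already held versican at 1186 to 1281 CPM, above the 1015 to 1057 CPM of wild-type cells given TGF-β. Biglycan did not show this order, with 1480.4 to 1528 CPM in KO-SD and 1869 to 1970.4 in WT-TGF. These 2 groups differ in genotype and treatment together, and their difference was not tested.

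After TGF-β the knockout cells were higher for 4 of the 6 genes and lower for 1, where 27.2% of all tested genes were called higher and 27.9% lower. Decorin was 5.24-fold higher (log2 fold change 2.39, SE 0.0957; adjusted p = 1.73e-19), versican 2.47-fold (1.31, SE 0.0263; adjusted p = 4.74e-27), osteoglycin 2.46-fold (1.30, SE 0.0704; adjusted p = 3.49e-16) and biglycan 1.44-fold (0.52, SE 0.0249; adjusted p = 1.42e-17). Fibromodulin was 2.39-fold lower (log2 fold change -1.26, SE 0.0433; adjusted p = 3.94e-21). Prelp did not pass the test (log2 fold change 0.30, SE 0.179; adjusted p = 0.153), and its libraries overlapped, at 1.63 to 2.08 CPM in WT-TGF and 1.92 to 2.57 in KO-TGF. The median log2 fold change was 0.91 over the 6 genes and -0.004 over all genes. Genotype and the cultures it was read in cannot be told apart, since neither the labels nor the study's methods give the number of mice or cultures behind each genotype.

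**Figure D2:**
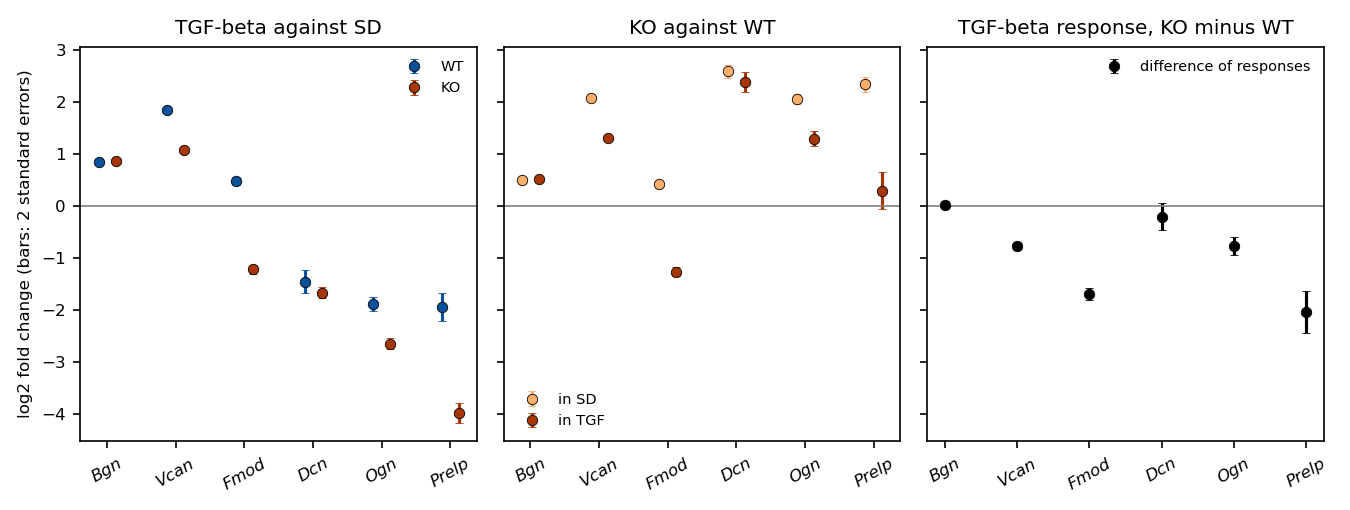
Log2 fold changes of the 6 tested genes with bars of 2 standard errors, for TGF-β against SD in each genotype, for KO against WT in each treatment, and for the difference between the responses to TGF-β (KO minus WT). Fmod lies above 0 in WT and below 0 in KO, and all 6 genes lie above 0 for KO against WT in SD.

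The interaction of genotype and TGF-β, the log2 response of the knockout minus that of the wild type, was below 0 and passed the test for 4 of the 6 genes, and did not pass it for Bgn and Dcn, where 8.77% of all tested genes were called higher and 16.6% lower. It was -2.04 for Prelp (SE 0.201; adjusted p = 2.39e-09) and -1.69 for fibromodulin (SE 0.0582; adjusted p = 9.48e-20). For osteoglycin it was -0.76 (SE 0.0866; adjusted p = 4.51e-08) and for versican -0.77 (SE 0.0375; adjusted p = 2.66e-16). The same sign covered 3 different shapes: versican rose by a smaller factor in the knockout, osteoglycin and Prelp fell by a larger factor, and fibromodulin turned from a rise into a fall. For versican the order depended on the scale, since the rise in level was 747 CPM in wild-type and 1342 CPM in knockout cells. Biglycan had an interaction of 0.02 (SE 0.0353; adjusted p = 0.781), an estimate whose sign changed with the scaling, the filter and 1 left-out library, and decorin one of -0.20 (SE 0.129; adjusted p = 0.279).

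Genes that lie side by side on the genome did not all respond alike. Coordinates are of GRCm38 from GENCODE. Fibromodulin (chromosome 1, 134037254 to 134048277, plus strand) lies 115839 bases from Prelp (133910304 to 133921414, minus strand). This pair moved in opposite directions with TGF-β in wild-type cells and fell together in knockout cells. Optc, another small leucine-rich gene 2304 bases from Prelp, had at most 12 counts in a library. Decorin (chromosome 10, 97479609 to 97518143) is followed on the same strand by lumican (97565128 to 97572703) after 46984 bases and then by Kera and Epyc. Decorin was read in every library, while Kera and Epyc had no count at all. Versican (chromosome 13, 89655312 to 89742509, minus strand) lies 43659 bases from Hapln1, the link protein that ties versican to hyaluronan, which also had no count in any library. Biglycan lies on chromosome X (73483602 to 73495933) and aggrecan on chromosome 7 (79053483 to 79115099).

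On another stretch of chromosome 13, neighbouring genes shared the group with the highest level. Ecm2 (49504810 to 49532789), asporin (49544443 to 49567565), osteomodulin (Omd, 49582462 to 49592822) and osteoglycin (49608046 to 49624501) lie in a row on the plus strand within the span of Cenpp, a kinetochore gene of the minus strand. All had their highest mean in KO-SD. So did decorin on chromosome 10, at 59.3 CPM in that group, and Prelp on chromosome 1, at 36.4 CPM. This order was thus not particular to the stretch, and the share of all genes highest in KO-SD was not counted. Omd was at 3.82 ± 0.458 CPM in WT-SD, 0.330 ± 0.0841 in WT-TGF, 14.1 ± 2.03 in KO-SD and 0.408 ± 0.137 in KO-TGF (SD, n = 3). It fell with TGF-β in both genotypes (log2 fold change -3.52, SE 0.264, adjusted p = 4.09e-13 in WT; -5.10, SE 0.197, adjusted p = 2e-20 in KO) and was higher in KO-SD than in WT-SD (1.89, SE 0.117; adjusted p = 1.01e-14). Cenpp was at 0.914 ± 0.117, 0.619 ± 0.207, 2.76 ± 0.331 and 0.566 ± 0.129 CPM, with a log2 fold change of 1.59 for KO-SD against WT-SD. It passed the RPKM limit only through KO-SD, so no test of its excess in that group is given. The study's counting used the strand, and Cenpp reached at most 65 counts where osteoglycin reached 4752, so its values are uncertain where the 2 genes overlap. Nol8, the next gene beyond osteoglycin, showed no such order, at 39.0, 45.2, 35.4 and 42.3 CPM.

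Asporin and Ecm2 were too low for the RPKM limit and were taken from a second fit, of all 18565 genes that had at least 1 count. There the KO-SD against WT-SD log2 fold change was 1.77 for Aspn (SE 0.756; adjusted p = 0.0465) and 1.25 for Ecm2 (SE 0.318; adjusted p = 0.000329), where 23.4% of these genes were called higher. TGF-β in KO gave -2.18 for Aspn (SE 0.859; adjusted p = 0.0226) and -1.95 for Ecm2 (SE 0.378; adjusted p = 8.27e-07), where 28.5% were called lower. For Aspn the sums behind this were 17 counts in KO-SD and 5 in WT-SD, a ratio of 3.54 after scaling (exact 95% interval 1.25 to 12.3, counting error only). Its KO-SD call was lost in 12 of 18 alternatives, including DESeq2 (adjusted p = 0.198), library sizes alone (0.0632) and 9 of the 12 fits without 1 library, and the TGF-β call in 4 of 18.

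**Figure D3:**
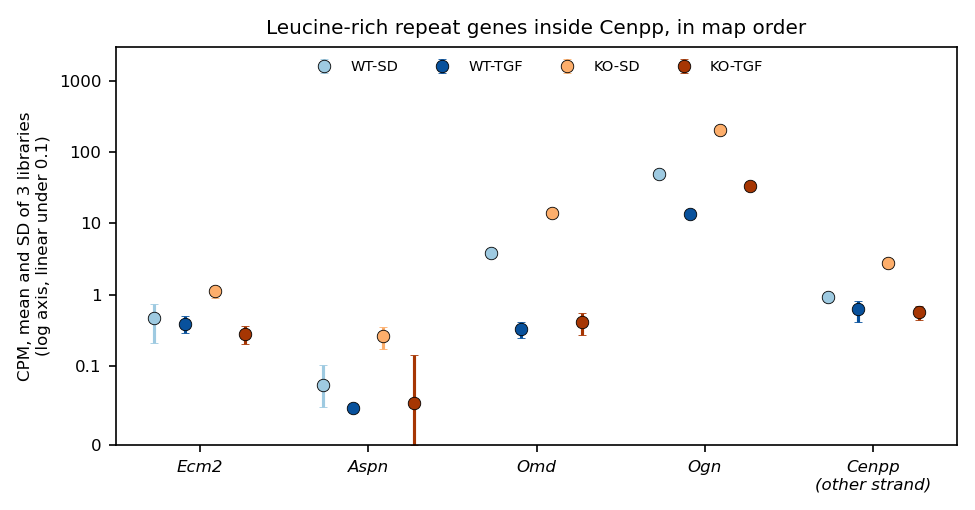
Mean level in CPM with SD of 3 libraries for Ecm2, Aspn, Omd and Ogn in map order and for Cenpp on the other strand, by group, on an axis that is logarithmic above 0.1 and linear below. Bars that would pass below 0 end there. Each gene is highest in KO-SD.

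To set the 3 kinds of response beside their promoters, the 250 bases before the transcription start are shown for Vcan, which rose in both genotypes, Fmod, which rose in one and fell in the other, and Ogn and Prelp, which fell in both. The sequences are RefSeq's on GRCm38.p6, and the table used holds 7 of the 9 members, all but Dcn and Lum. Capitals mark matches, on either strand, to 5 motifs: the SMAD box CAGAC, the AP-1 site TGANTCA, the TATA box TATAAA, the core TTGGTGA of the TGF-β inhibitory element, and the TEAD site GGAATG.
Vcan, chr13:89742513-89742762, minus strand: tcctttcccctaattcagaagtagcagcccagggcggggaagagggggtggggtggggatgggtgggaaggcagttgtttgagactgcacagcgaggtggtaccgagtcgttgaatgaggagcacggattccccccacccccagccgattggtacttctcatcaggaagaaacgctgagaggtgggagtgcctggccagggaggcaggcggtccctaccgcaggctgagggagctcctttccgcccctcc
Fmod, chr1:134037004-134037253, plus strand: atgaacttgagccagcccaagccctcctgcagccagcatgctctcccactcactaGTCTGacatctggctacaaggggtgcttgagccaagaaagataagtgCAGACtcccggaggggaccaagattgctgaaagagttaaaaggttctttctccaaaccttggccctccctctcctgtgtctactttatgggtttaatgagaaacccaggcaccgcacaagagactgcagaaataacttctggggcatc
Ogn, chr13:49607765-49608014, plus strand: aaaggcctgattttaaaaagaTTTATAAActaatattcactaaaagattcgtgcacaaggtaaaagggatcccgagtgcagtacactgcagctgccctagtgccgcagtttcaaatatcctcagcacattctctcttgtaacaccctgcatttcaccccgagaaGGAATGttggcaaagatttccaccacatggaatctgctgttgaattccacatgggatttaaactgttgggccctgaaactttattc
Prelp, chr1:133921402-133921651, minus strand: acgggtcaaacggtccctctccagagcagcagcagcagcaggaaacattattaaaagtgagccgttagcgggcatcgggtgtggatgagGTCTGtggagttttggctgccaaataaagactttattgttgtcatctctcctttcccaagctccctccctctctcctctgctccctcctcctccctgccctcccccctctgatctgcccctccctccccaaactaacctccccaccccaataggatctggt

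Vcan held none of the 5 motifs in this window, and neither did Bgn. Fmod held the SMAD box at 195 and at 148 bases before the start, and Prelp held it at 161 bases. Ogn held a pair of overlapping TATAAA matches on opposite strands at 229 and 227 bases before the start and GGAATG at 86 bases. The Ogn window ends at 49608014, while the gene starts at 49608046 in GENCODE, so these distances hold for the RefSeq start only. The bases after that RefSeq start were not found in a GENCODE transcript of Ogn. Of 32851 promoters of the same length, 42.2% held the SMAD box, 12.4% TATAAA, 12.6% GGAATG, 6.7% the AP-1 site and 3.3% TTGGTGA, and none of the 7 members held either of the last-named pair. GC content was 62.4% for Vcan and 64.4% for Bgn, against 51.2% for Fmod, 42.0% for Ogn, 55.6% for Prelp and a median of 52.4% over all these promoters.

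The enzymes that build the chondroitin and dermatan sulfate chains of biglycan, decorin and versican mostly rose with TGF-β. Of 20 listed, 19 were tested. In WT 14 were higher, 1 lower and 4 neither, and in KO 12 were higher, 5 lower and 2 neither, with median log2 fold changes of 0.44 and 0.25. Of all genes tested, 35.9% were higher and 36.5% lower in WT, and 35.0% and 39.0% in KO. Xylt1, which starts the chain on the core protein, rose to 49.8 ± 1.45 CPM in WT-TGF (log2 fold change 2.17, SE 0.0644; adjusted p = 2.65e-23), and from 7.32 ± 0.48 in KO-SD to 29.4 ± 2.28 in KO-TGF (2.01, SE 0.078; adjusted p = 2.42e-20). Chsy1, which extends chondroitin, had 94.7 ± 2.05 CPM in WT-SD and 324 ± 8.22 in WT-TGF, against 134 ± 6.60 in KO-SD and 480.2 ± 7.36 in KO-TGF. Ust, a uronyl sulfotransferase, and Chst11, a chondroitin sulfotransferase, rose in both genotypes as well, with log2 fold changes of 2.11 and 1.33 in WT and 1.97 and 1.69 in KO.

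Csgalnact1, which adds the first sugar that commits a chain to chondroitin, resembled fibromodulin in turning direction. It rose from 24.9 ± 1.10 CPM in WT-SD to 48.8 ± 2.85 in WT-TGF (log2 fold change 0.97, SE 0.051; adjusted p = 6.56e-17) and fell from 87.7 ± 4.27 in KO-SD to 65.4 ± 0.629 in KO-TGF (-0.42, SE 0.0417; adjusted p = 1.67e-10), with an interaction of -1.39 (SE 0.0659; adjusted p = 1.33e-16). For the 19 enzymes the interaction passed the test in 4, higher for Chst11 and lower for Csgalnact1, Chpf and Dsel, near the share of all genes (8.77% higher and 16.6% lower). Knockout against wild type, 13 were higher and 3 lower in SD (all genes, 30.6% and 25.3%), and 11 higher and 2 lower after TGF-β (27.2% and 27.9%).

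Most of the tested proteases that cut versican and aggrecan fell while versican rose. Of 7 listed, 4 were tested, and in both genotypes Adamts1, Adamts5 and Adamts9 fell with TGF-β and Adamts4 rose. Of all tested genes, 36.5% were called lower in WT and 39.0% in KO. The genes under the RPKM limit were mixed in WT. Adamts8 went from 0.195 to 1.11 CPM with TGF-β and Adamts15 from 1.96 to 0.125. Adamts20, at 0.566 and 0.725, did not pass the test in the fit of all genes with a count. In KO, Adamts8 went from 0.0467 to 0.0178 CPM, Adamts15 from 0.125 to 0.0175 and Adamts20 from 0.952 to 0.62, and none passed that test. The KO values of Adamts8 and Adamts15 were below the 0.13 to 0.16 CPM of 3 counts. Adamts1 had 626 ± 2.16 CPM in WT-SD and 222 ± 11.3 in WT-TGF (log2 fold change -1.49, SE 0.0299; adjusted p = 1.23e-27), against 534 ± 8.06 in KO-SD and 105 ± 4.47 in KO-TGF (-2.35, SE 0.0325; adjusted p = 9.04e-32). Adamts5 had 359.6 ± 2.08 CPM in WT-SD and 132 ± 0.679 in WT-TGF, against 299 ± 8.35 in KO-SD and 83.7 ± 3.60 in KO-TGF. Adamts4 had 48.8 ± 1.46 CPM in WT-SD and 120.3 ± 1.31 in WT-TGF, against 57.9 ± 1.62 in KO-SD and 122 ± 2.35 in KO-TGF. All 3 tested proteases that fell with TGF-β were also lower in the knockout than in the wild type under both treatments. Of all tested genes, 25.3% were called lower in the knockout in SD and 27.9% after TGF-β.

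Of 14 listed receptors and partners, 11 were tested, with 7 higher and 3 lower under TGF-β in WT and 7 higher and 4 lower in KO. The shares of all genes were 35.9% higher and 36.5% lower in WT, and 35.0% and 39.0% in KO. Has2, which makes the hyaluronan that versican binds, had 4.73 ± 0.272 CPM in WT-SD and 73.3 ± 5.04 in WT-TGF (log2 fold change 3.95, SE 0.069; adjusted p = 3.93e-29), against 5.27 ± 0.618 in KO-SD and 77.3 ± 1.38 in KO-TGF (3.87, SE 0.0684; adjusted p = 4e-29). The hyaluronan receptor gene Cd44 had 384 ± 2.26 CPM in WT-SD and 793 ± 23.0 in WT-TGF, against 425 ± 14.6 in KO-SD and 810.4 ± 4.09 in KO-TGF. Tgfb1, the ligand that decorin and biglycan bind, went from 59.6 ± 0.153 to 284 ± 3.71 and from 70.3 ± 2.24 to 331 ± 7.12 CPM. The genes of both Toll-like receptors through which free biglycan signals fell. Tlr2 had 65.6 ± 3.18 CPM in WT-SD and 30.5 ± 1.80 in WT-TGF, against 28.9 ± 0.678 in KO-SD and 10.6 ± 0.811 in KO-TGF, and Tlr4 from 56.5 ± 1.57 to 28.9 ± 0.641 and from 60.3 ± 4.56 to 23.8 ± 0.739.

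**Figure D4:**
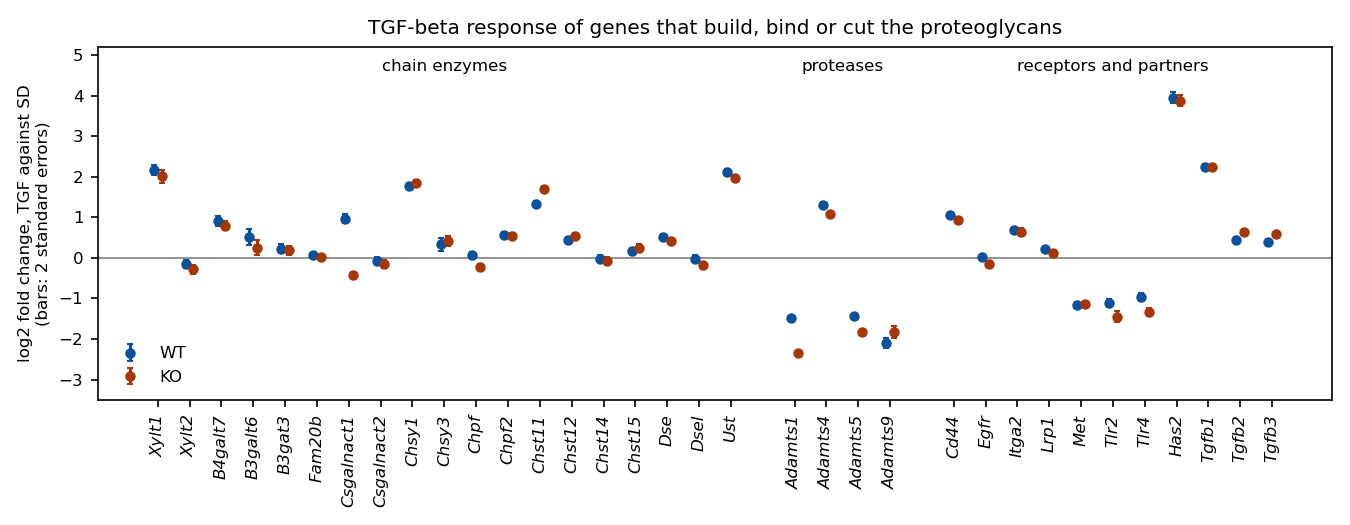
Log2 fold change of TGF-β against SD in WT and KO cells, with bars of 2 standard errors, for the tested enzymes that build chondroitin and dermatan sulfate chains, the proteases that cut versican and aggrecan, and receptors and partners. Csgalnact1 lies above 0 in WT and below 0 in KO, and Adamts1, Adamts5 and Adamts9 lie below 0 in both.

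Other members of the same families were few. Of 11 further small leucine-rich genes 3 were tested, namely Omd, Podn and Tsku. Podn fell with TGF-β from 19.8 ± 1.04 to 8.92 ± 0.187 CPM in wild-type and from 18.3 ± 0.73 to 6.12 ± 0.435 in knockout cells, and Tsku rose from 42.1 ± 2.37 to 57.7 ± 1.09 and from 44.5 ± 4.12 to 62.7 ± 1.33. None of the 6 other hyaluronan-binding proteoglycans and link proteins was tested, and their summed level was 0.459 to 1.42 CPM over all libraries.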

How the data were processed

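Poly(A) RNA of 12 MMC libraries was sequenced. Per the authors' methods, TopHat placed the single-end reads on mm10 and HTSeq assigned them to RefSeq genes by strand. The deposited files hold raw counts per gene in 1 file per library, and rows that name no gene (no feature, 10.26 to 15.38%, several alignments, 11.16 to 11.74%, ambiguous, 0.2253 to 0.2741%) were left out. Genes with RPKM above 1 in at least one library were tested with edgeR 4.0.16 (R 4.3.3; quasi-likelihood test, TMM, 1 mean per group over all 12 libraries, Benjamini-Hochberg over 11477 genes, false discovery rate 5%). Genes outside that limit were read from a second fit, of all 18565 genes with a count. Exon lengths came from GENCODE. The biological coefficient of variation was 0.0268. Replicates of a group differed by more than sampling noise (chi-square per degree of freedom 1.35 to 5.41 over 12 pairs). No library was thus taken for a second sequencing of another. Separate preparations of the same culture could also differ in this way, so these values do not show that the cultures were separate. CPM were scaled by TMM, and SE is the log2 fold change divided by the root of F. Members and gene lists were chosen with earlier results of these data known. The text names the 9 members, genes of the lists, neighbours in the annotation, and for each tested member the 3 genes of highest correlation. Mirg was added to check the labels. Alternatives were library size alone, DESeq2 1.42.0, no filter, a CPM filter (above 1 in at least 3 libraries), fits of only the groups compared, a replicate block, and leaving out each library. Some genes of the podocyte list are not reported here.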

Additional observations from a re-analysis of the deposited data

Results flagged for a closer look

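The response to TGF-β differed between wild-type and knockout cells, by the interaction term of the fit, for 4 of the 6 tested genes. The log2 response in KO minus that in WT was -1.69 for Fmod, -2.04 for Prelp, -0.76 for Ogn and -0.77 for Vcan. Fmod was the only one of these with opposite directions, at 0.48 in WT and -1.21 in KO. Groups of 3 libraries are too small to single out a library by its gap to the others.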

How the results depend on the processing

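For the 6 tested genes, 29 of 30 combinations of gene and comparison kept their direction and their side of the 5% threshold under every alternative run. The exception was the interaction of Bgn, not called at 0.02, which was -0.03 with library size alone and -0.00016 with no filter, and ranged from -0.01 to 0.07 over fits without 1 library. Library size alone moved the median log2 fold change of all genes to -0.16 for TGF-β in WT, -0.23 for TGF-β in KO and -0.12 for KO against WT in TGF, and the share of calls that were higher from 49.6% to 30.6% and from 47.3% to 25.7% for TGF-β in WT and KO, from 54.8% to 37.0% and from 49.4% to 23.4% for KO against WT in SD and TGF, and from 34.6% to 20.6% for the interaction. The interaction share also moved up, to 43.2% with DESeq2 and to 46.5% to 48.1% without 1 KO-TGF library (48.1%, 46.5% and 47.2% without replicates 1, 2 and 3). Same-numbered libraries did not deviate together (correlations from -0.0284 to 0.0868 over 18 pairs), so numbers were not taken to pair them. A fit with the replicate block changed no call of a tested gene, with an interaction of -1.69 for Fmod, and called 8423, 8583, 6610, 6478 and 3173 genes in the 5 comparisons. Depth limits Lum, Acan and Aspn, where no change could be detected at a few counts or where a call was lost in several fits.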

Other observations

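The tested genes whose log2 CPM over the 12 libraries was most like that of each member are given here as a description. The 12 libraries are 4 groups of 3, share 1 scaling, and many genes follow the same group means. Prelp was most like Ncapg2 (Pearson's r = 0.9957), Kif15 (0.9945) and Clspn (0.9928), genes of chromosome condensation, the mitotic spindle and the replication checkpoint. Ogn was most like Anln (0.9945), which acts in cytokinesis, Smc4 (0.9941), a condensin subunit, and Cmtm3 (0.9930). Kif15 was at 2.92, 0.752, 11.8 and 1.08 CPM and Anln at 16.7, 5.86, 61.4 and 10.9 CPM in the groups ordered as WT-SD and WT-TGF, then KO-SD and KO-TGF, so that both were highest in KO-SD like Prelp and Ogn.

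Vcan was most like Myo7a (0.9987), a myosin, Tubb5 (0.9971), a tubulin, and Mmp14 (0.9952), a membrane-bound matrix protease, which was at 657, 1189, 1342 and 2107 CPM in the same groups. Bgn was most like Pdia6 (0.9976) and Calu (0.9975), which act in the endoplasmic reticulum, and Gars (0.9976), a tRNA synthetase. Fmod was most like Rftn1 (0.9605), Mgp (0.9509), the matrix Gla protein, and Hoxa10 (0.9299). Mgp was at 64.8, 68.5, 78.4 and 24.7 CPM, lowest in KO-TGF like Fmod. Dcn was most like Cavin3 (0.9930), Eef1a1 (0.9905) and Marcks (0.9860). Among the members, r was 0.96 for Ogn and Prelp, 0.93 for Bgn and Vcan, 0.92 for Dcn and Ogn, and -0.52 for Bgn and Fmod.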
